A study of Ovis aries with 6 samples.

Results

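Low-methylated regions that lie far from any CpG-rich unmethylated region, and that were listed in both fetal and lamb fat, were examined in the perirenal fat of sheep, which surrounds the kidney. The deposited lists hold 108524 fetal and 103520 lamb low-methylated regions (LMRs) on autosomes 1 to 26. Regions that overlapped or touched were merged, which gave 136802 regions, and 74229 of these held a region of each list. Of those, 29231 had their nearest edge more than 50 kb from every unmethylated region (UMR) of either stage and are called remote LMRs here. The other 44998 regions listed in both stages, at most 50 kb from a UMR, served for comparison and are called near LMRs. The data are whole-genome bisulfite sequencing of 3 fetal animals taken 132 days post conception (a sheep pregnancy lasts 150) and of 3 lambs, aged 89 days by the sample labels and 80 by the design text. All 6 are untreated wild-type pure-bred Merino sheep from separate ewes, and the tissue is labelled brown adipose in the fetuses and white adipose in the lambs. The fetal descriptions all end in TV and the lamb descriptions all end in VEH, and these tags, which the labels do not explain, cannot be told apart from stage. Whole tissue was sequenced, so a level is a mean over all its cell types, and no cell type marker was measured.

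After bisulfite treatment an unmethylated cytosine is sequenced as T, and the methylation level of a CpG is the share of its reads that kept the C. In mammalian genomes most CpGs are methylated. Regions that stay unmethylated are mostly CpG-rich promoters, whereas short regions of reduced methylation away from promoters are often bound by transcription factors and include many enhancers. LMRs remote from UMRs are therefore a part of the genome where distal regulatory elements of a tissue may be found. Brown fat produces heat in the newborn and white fat stores lipid, and the passage from one to the other is the subject of the series.

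Remote LMRs were longer and poorer in CpGs than near LMRs. Their width ran from 28 to 17283 bp, with a median of 845 bp and quartiles of 545 and 1343 bp, against a median of 623 bp for near LMRs. Together they cover 32.9 Mb. A remote LMR held a median of 9 CpG positions (quartiles 7 and 13) against 11 in near LMRs (quartiles 8 and 16). The median density was 11.6 CpGs per kb in remote and 18.6 in near LMRs. These are counts over 1 list per stage and carry no replicate error.

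The lists separate LMRs from UMRs by CpG number. Every LMR of either list held 5 to 29 CpG positions of the deposited table, and every UMR held at least 30. The median UMR held 71 in both stages. The name LMR therefore sets no lower bound on the level, and distance from a UMR means distance from a low-methylated region with at least 30 CpGs. Of the remote LMRs, 79 reached 30 or more CpGs once the regions of both lists were merged.

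The distance to the nearest UMR had a median of 130 kb, quartiles of 78.4 and 255 kb, and a maximum of 2026 kb. The rule sets its lower bound. The members closest to that bound were on chromosome 23 from 1764898 to 1765326, 50001 bases from a UMR, and on chromosome 4 from 12897011 to 12898130, at 50003 bases. The shared LMRs just below it were on chromosome 5 from 43938404 to 43939440, at 50000 bases, and on chromosome 25 from 6184562 to 6185090, at 49997 bases. The chromosome 23 region had a mean level of 48.3% in fetal animals and 40.5% in lambs over 2 CpGs with enough reads, and the chromosome 4 region had no such CpG. Both regions below the bound were lower. The chromosome 5 region had means of 22.3% and 25.9%, and the chromosome 25 region 15.6% and 19.3%.

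Another LMR lay close to remote LMRs less often than to near LMRs. The next LMR of either list was within 5 kb of 47.0% of remote LMRs and within 50 kb of 97.7%, against 67.6% and 99.2% of near LMRs. These shares were not compared with random placement. Remote LMRs fell into 4004 stretches between consecutive UMRs, with a median of 5 members per stretch and a median length of 0.263 Mb. Stretches with at least 10 members numbered 1015 and held 62.3% of the remote LMRs. The stretch with the most members, 72, ran from 85886375 to 87483693 on chromosome 7. Its members were at 31.8%, 31.9% and 31.0% for fetal animals 1 to 3, with lambs 1 to 3 at 32.4%, 34.2% and 32.3%. The next, with 71 members on chromosome 18 from 16054401 to 18433675, was at 35.5%, 36.4% and 35.01% in fetuses 1 to 3, while the lambs measured 35.8%, 37.9% and 36.5%. The stretch on chromosome 22 from 24300383 to 26936809 held 68 members, at 29.0%, 30.7% and 31.8% in the fetuses and, for lambs, 33.2%, 35.8% and 32.6%. The lambs lay above the fetal animals without overlap on chromosomes 7 and 22, by 1.41 and 3.37 percentage points on average, and with overlap on chromosome 18, by 1.13 points. The stages also overlapped in the other 3 of the 6 stretches with the most members. The difference was -0.119 points on chromosome 2 from 106403218 to 108000575 (66 members), 1.94 points on chromosome 12 from 45422801 to 46752187 (64 members) and -0.432 points on chromosome 25 from 36503836 to 38446766 (64 members). These are the 6 stretches with the most members, and they were not tested.

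The part of the shared LMRs that was remote differed widely between chromosomes. It was 54.3% on chromosome 6, 53.5% on chromosome 16 and 53.1% on chromosome 8, but 20.02% on chromosome 11 and 23.15% on chromosome 14. Per Mb of chromosome covered by the table, remote LMRs numbered from 9.88 on chromosome 1 to 17.2 on chromosome 26. Over all autosomes 39.4% of the shared LMRs were remote, against 47.4% of the 33822 LMRs of the fetal list alone and 47.0% of the 28751 of the lamb list alone. Seen from the lists, 64.7% of the fetal LMRs more than 50 kb from a UMR overlapped a lamb LMR, and 68.5% of the lamb ones a fetal LMR. Within 50 kb of a UMR the shares were 71.8% and 74.8%.

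The edges of a remote LMR were the same in both lists for 7140 regions, or 24.4%. The fetal list covered more bases in 40.2% and the lamb list covered more in 35.3%. In near LMRs these shares were 41.2% and 35.6%. The median width was 739 bp in the fetal and 731 bp in the lamb list. The edges were set by the authors' calls, 1 per stage, so these counts say nothing about the spread between animals.

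Depth set how much of each region could be measured. Summed over all CpG positions the covering reads numbered between 136938075 and 209550245 per animal, and a read enters at every CpG it spans. Autosomal CpGs had a mean coverage between 5.22 (lamb 2) and 8.00 reads (lamb 1). At the 315498 CpG positions of remote LMRs it lay between 5.86 (fetal animal 2) and 9.02 (lamb 1). A CpG was used where no animal had fewer than 5 reads, which left 98069 CpGs in 24833 remote LMRs and no CpG in the other 4398. The libraries of the stages covered the 2 kinds of region unequally. Mean coverage of near over remote LMRs was 1.04, 1.07 and 1.11 for fetal animals 1 to 3, with lambs 1 to 3 at 1.01, 0.985 and 0.965, with no overlap between stages. Its part in the results below was not tested beyond the settings with equal weight per CpG.

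Remote LMRs were partly methylated in every animal. Their level was far below their surroundings, which follows from their listing as low-methylated in both stages. Summed over all members, the level was 30.4%, 31.6% and 30.1% in fetuses 1 to 3 and, for lambs 1 to 3, 31.9%, 32.8% and 31.7%. The lowest lamb lay above the highest fetal animal, but by less than the spread within either stage. The mean was 30.7% ± 0.805 in fetal animals and 32.1% ± 0.584 in lambs (SD, n = 3 each), a difference of 1.43 points. A two-sided exact permutation test gave p = 0.1, and 3 animals against 3 cannot go lower. The stages overlapped under equal weighting of CpGs (1.28 points, p = 0.2 by exact permutation) or of regions (1.31 points, p = 0.3) and on leaving out CpGs of very high coverage (1.295 points, p = 0.3). Without fetal animal 2, the highest of the fetal animals, the difference was 1.88 points, and without lamb 2, the highest of all, it was 1.10 points. Near LMRs were also higher in lambs, by 1.415 points without overlap. Autosomal CpGs in no listed region were higher by 0.4265 points and all autosomal CpGs by 0.680 points, both with overlap of the animals. Remote LMRs were not tested against these CpGs.

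The stage difference of remote LMRs had the same sign on all 26 autosomes. It ran from 0.371 points on chromosome 6 to 2.59 points on chromosome 11. On 13 chromosomes the 3 lambs lay above the 3 fetal animals, and on none did they lie below. The same animals enter on each chromosome, so these are not separate tests. Remote LMRs had their lowest fetal mean on chromosome 19, at 28.3% ± 0.675, where the lambs were at 29.97% ± 0.960. The highest fetal mean was on chromosome 25, at 32.8% ± 0.993, with lambs at 33.8% ± 1.02 (SD, n = 3 each).

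**Figure D1:**
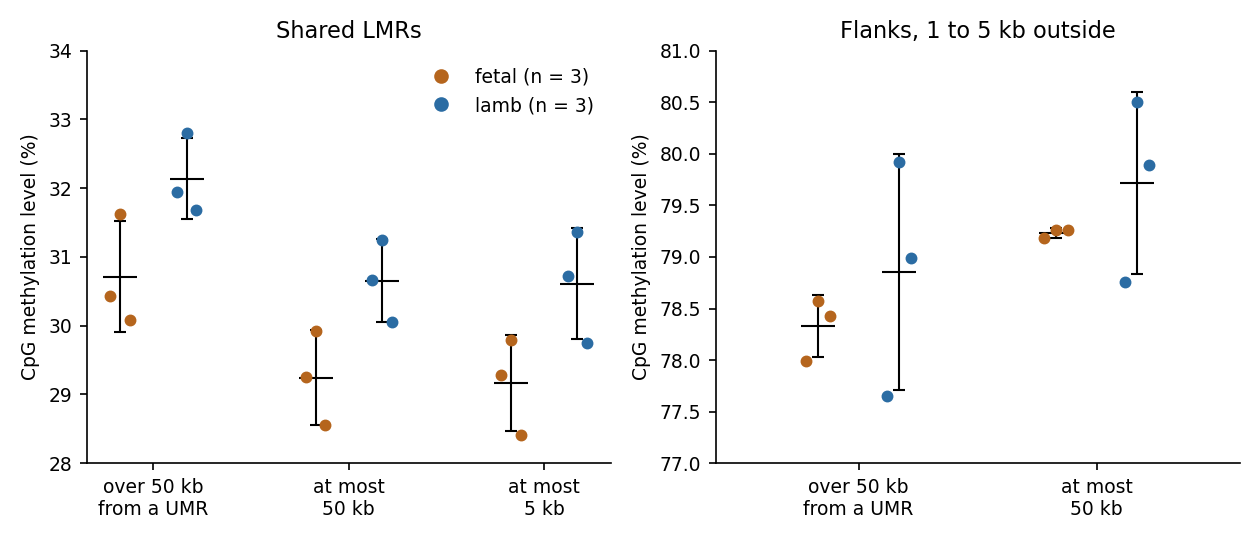
CpG methylation level (%) of shared LMRs at 3 distances from a UMR (left) and of their flanks 1 to 5 kb outside (right), 1 point per animal, with the mean and SD of each stage (n = 3). Flank CpGs lie in no listed UMR, LMR or DNA methylation valley. In every animal remote LMRs stand above near LMRs, and the flanks of remote LMRs stand below those of near LMRs; the vertical axes do not start at 0.

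Over whole regions, remote LMRs were more methylated than near LMRs within each animal. Near LMRs were at 29.3%, 29.9% and 28.6% for fetal animals 1 to 3, with lambs 1 to 3 at 30.7%, 31.3% and 30.1%. The remote level was higher in 6 of 6 animals, by 1.18 to 1.69 points and 1.48 ± 0.203 on average (SD, n = 6). The exact sign-flip permutation test over the animals, two-sided, gave p = 0.0313, the smallest it can give. The same regions enter in every animal. This p, like those of the same test below, therefore measures agreement between animals and not the spread between regions. With a minimum of 10 reads, which kept 664 CpGs of remote LMRs, the order turned. The difference was then -2.42 points, with the same p = 0.0313 by the exact sign-flip permutation test. Against the 11629 shared LMRs within 5 kb of a UMR the difference was 1.54 points, also p = 0.0313 by the exact permutation test. Remote minus near was 1.47 ± 0.259 points in fetal animals and 1.48 ± 0.188 in lambs (SD, n = 3 each; exact permutation p = 0.9, two-sided). The change of that gap between stages was 0.0125 points, and its sign turned under 5 other settings and on leaving out 3 of the 6 animals, 1 at a time.

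How remote and near LMRs compared depended on CpG density and width. Among regions with up to 5 CpGs per kb, remote LMRs stood 4.40 points above near LMRs, and with 5 to 10 CpGs per kb 2.84 points above. The gap was 1.01 points at 10 to 20 and 0.328 points at 20 to 40 CpGs per kb, higher in 6 of 6 animals in each of these classes. Above 40 CpGs per kb the order turned, with 746 remote LMRs at 28.4% and 4537 near LMRs at 31.1%, a difference of -2.68 points, and remote LMRs were lower in 6 of 6 animals. Among regions up to 500 bp wide the gap was -0.195 points, and remote LMRs were lower in 5 of 6 animals (exact permutation p = 0.0938, two-sided). Among regions over 2000 bp wide it was 4.77 points, with 3426 remote LMRs at 37.6% and 1707 near LMRs at 32.8%. Grouped by CpG number the gap kept its sign, from 1.58 points at 5 CpGs to 0.558 points above 20 CpGs. Over the 14 classes, which share their regions across the 3 groupings, 13 gave an exact permutation p of 0.0313 and an adjusted p (Benjamini-Hochberg) of 0.0337. These classes were chosen after the data were seen.

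**Figure D2:**
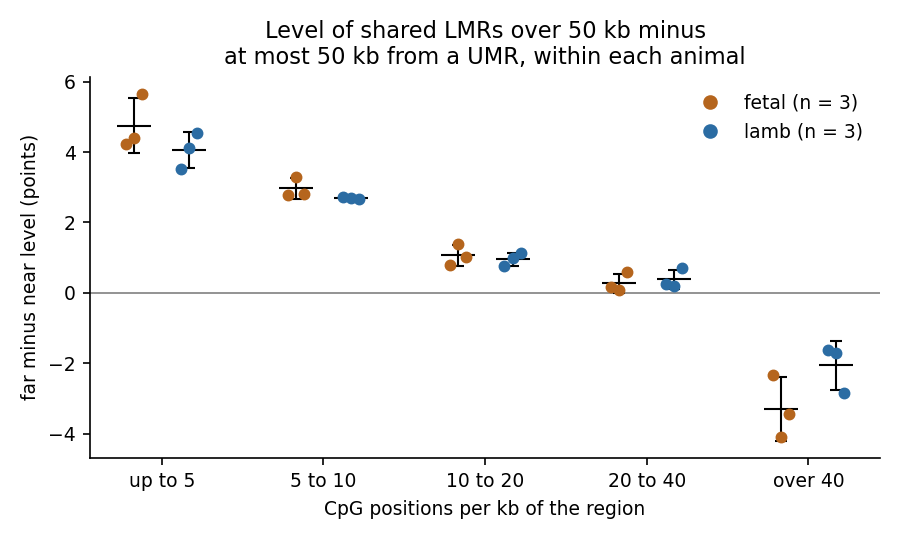
Level of remote minus near LMRs within each animal (percentage points) by CpG positions per kb of the region, 1 point per animal with the mean and SD of each stage (n = 3). The points fall from 4.40 on average at up to 5 CpGs per kb to -2.68 above 40, where all 6 animals lie below 0.

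With listed regions left out, the surroundings of remote LMRs were somewhat less methylated than those of near LMRs. Flanks were taken as the CpGs 1 to 5 kb outside each edge that lie in no listed UMR, LMR or DNA methylation valley. Flanks of remote LMRs were at 78.0%, 78.6% and 78.4% in fetuses 1 to 3 and, for lambs 1 to 3, 77.7%, 79.9% and 79.0%. They were below the flanks of near LMRs in 6 of 6 animals, by 0.883 ± 0.236 points (SD, n = 6; exact sign-flip permutation p = 0.0313, two-sided, the smallest it can give). The dip is the flank level minus the level of the region in the same animal. At remote LMRs it was 47.6 ± 0.698 points in fetal animals and 46.7 ± 0.869 points in lambs. At near LMRs it was 49.99 ± 0.695 and 49.1 ± 0.887 points (SD, n = 3 each). It was shallower at remote LMRs in 6 of 6 animals, with remote minus near between -2.54 and -2.12 points (exact permutation p = 0.0313). Between stages the flanks of remote LMRs differed by 0.519 points (exact permutation p = 0.5) and the dips by -0.909 points (p = 0.3), both with overlap of the animals. The flank difference was -0.0148 points without lamb 2, and the dip difference was -0.410 points without lamb 1.

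Around their centres, remote LMRs formed a narrow trough, whose presence follows from the listing. In the 250 bp on either side of the centre the level was 31.4% and 31.3% for fetal animals, with lambs at 32.7% and 32.5%, as means of 3 animals. From 1000 to 1250 bp away it had returned to 76.0% and 76.5%. CpG positions rose from about 10.0 per kb at 5 kb to 13.8 per kb at the centre. The lamb mean was above the fetal mean in all 40 bins of 250 bp, by 0.272 to 1.28 points. Every lamb lay above every fetal animal in 2 of these bins. The central bins differed by 1.26 and 1.28 points and no other bin by more than 0.819 points. Around near LMRs the lamb mean was also higher in all 40 bins, by 0.266 to 1.16 points. Near LMRs, which are narrower, were at 33.5% to 34.7% in their central bins. In the central bins remote LMRs thus lay below near LMRs, in every animal, the reverse of the order over whole regions. These bins reach outside the narrowest regions, and the cause was not tested. The trough of near LMRs stood in surroundings that include neighbouring UMRs, at 72.9% in fetal animals and 73.6% in lambs from 1000 to 1250 bp away.

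**Figure D3:**
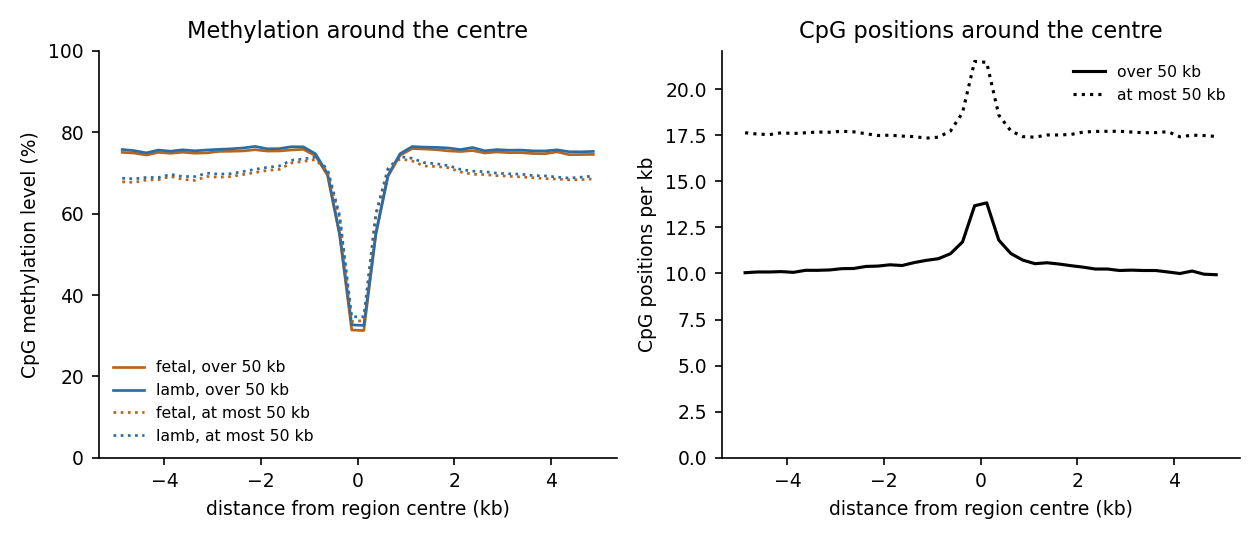
Mean CpG methylation level (%) of 3 animals per stage (left) and CpG positions per kb (right) in bins of 250 bp by distance from the centre (kb) of remote (solid) and near (dotted) shared LMRs. The remote trough falls from about 75% to 31.3% in fetal animals and 32.5% in lambs, and remote surroundings hold about 10.0 CpGs per kb against 17.6 for near LMRs.

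The level within remote LMRs was higher the farther they lay from a UMR. Members at 50 to 100 kb (11005 regions) were at 30.25% ± 0.930 in fetal animals and 31.5% ± 0.405 in lambs (SD, n = 3 each). The 8565 members at 100 to 200 kb were at 30.4% ± 0.676 and 32.0% ± 0.581, and the 7123 at 200 to 500 kb at 31.5% ± 0.910 and 32.8% ± 0.825. The 2538 members beyond 500 kb were at 33.6%, 32.8% and 32.4% in fetuses 1 to 3 and, for lambs 1 to 3, 34.2%, 36.4% and 34.5%. Fetal animal 2 went against this order from 50 to 200 kb, with 31.3% in the first class and 31.2% in the next. In each of the other animals the level rose from every class to the next. Compared between animals of a stage, neighbouring classes overlapped, except lambs at 200 to 500 kb and beyond. This order is a description and was not tested. The flanks went the other way, from 79.1% at 50 to 100 kb to 75.7% beyond 500 kb in fetal animals. Width moved with distance as well, with a median of 729 bp in the nearest class and 1371 bp beyond 500 kb. The difference between lambs and fetal animals was 1.26, 1.601, 1.302 and 2.11 points in the 4 classes. Exact permutation p was 0.2, 0.1, 0.3 and 0.1, two-sided, and no class passed after Benjamini-Hochberg adjustment (smallest 0.2), which this design cannot reach.

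**Figure D4:**
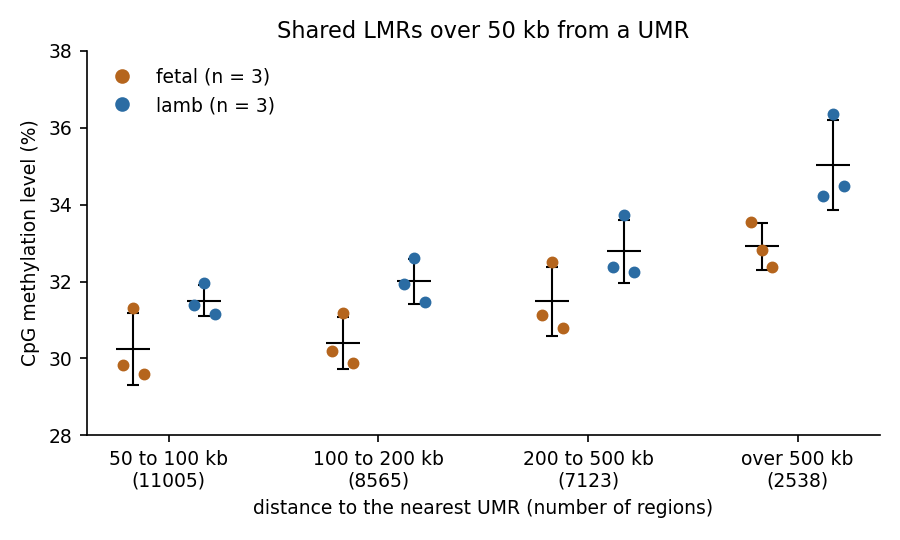
CpG methylation level (%) of remote LMRs by distance to the nearest UMR, with the number of regions in each class, 1 point per animal and the mean and SD of each stage (n = 3). Fetal means run from 30.25% at 50 to 100 kb to 32.9% beyond 500 kb and lamb means from 31.5% to 35.0%; the vertical axis does not start at 0.

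CpG number, width and isolation also marked out members with different levels. Members with more than 20 CpGs were at 27.9% ± 0.593 in fetal animals and 29.8% ± 0.840 in lambs, and those with 6 to 8 CpGs at 32.2% ± 0.853 and 33.5% ± 0.610. Members over 2000 bp wide were at 36.8% ± 1.11 and 38.3% ± 1.26, in flanks of 73.2% and 73.8%, the lowest flanks of the width classes. The 660 members with no other LMR within 50 kb were the lowest of the isolation classes, at 25.96% ± 0.804 and 28.4% ± 1.49. Those with another LMR within 5 kb were at 31.2% ± 0.870 and 32.7% ± 0.533 (SD, n = 3 each). In each of these classes the lamb mean was above the fetal mean.

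With at least 3 usable CpGs, 15362 of the 29231 remote LMRs (52.6%) could be examined one by one, over a median of 5 CpGs and 41.5 reads per animal. Their level, averaged over the 6 animals, had a median of 32.8% and quartiles of 23.7% and 40.3%. Up to 10% was found in 769 members (5.01%), against 6.66% of near LMRs, and 50% or more in 744 (4.84%), against 3.37%. Members averaging 20 to 30% were at 23.8%, 25.4% and 23.8% for fetal animals 1 to 3, with lambs 1 to 3 at 26.5%, 26.8% and 25.7%, a difference of 1.99 points with no overlap. Members at up to 10% were at 6.32% ± 0.687 and 6.40% ± 0.151, and those at 40 to 50% at 43.6% ± 1.27 and 44.0% ± 0.744 (SD, n = 3 each), both with overlap. Grouping by the mean over all 6 animals favours neither stage.

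The lowest members had almost no methylated reads. On chromosome 13 from 73301564 to 73302146, 51.0 kb from a UMR, 3 of 829 reads over 13 CpGs showed C, and no animal was above 0.901%. On chromosome 4 from 7694622 to 7696143, with 25 CpG positions, it was 5 of 621 reads, and on chromosome 16 from 18003959 to 18005074, with 29 CpG positions, 7 of 674 reads. In these 3 regions 3 or 4 of the 6 animals had no methylated read, which at the lowest depth allows a level of up to 2.86%, 4.48% and 3.26%. Intervals and limits of this kind cover counting error only. The highest members with at least 10 usable CpGs included the region on chromosome 22 from 15790338 to 15799220, 8883 bp wide. It was at 64.3%, 66.9% and 52.1% in the fetuses and, for lambs, 58.2%, 57.4% and 45.5%, above its own flanks of 27.1% and 42.7%. On chromosome 26 from 42288148 to 42290329 the means were 55.7% ± 5.69 and 56.4% ± 7.77. On chromosome 1 from 186458039 to 186458672 the fetal animals spread from 49.1% to 80.5% and the lambs from 43.1% to 50%, with overlap, and the difference of -16.3 points was -7.00 without fetal animal 1.

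Members at the extremes of distance and width showed no difference between stages beyond their spread, except for 2 whose animals did not overlap. The examined member farthest from a UMR, at 1926 kb, was on chromosome 6 from 74503038 to 74505196, at 25.9% ± 10.05 in fetal animals and 30% ± 3.02 in lambs (SD, n = 3 each). On chromosome 5 from 101898936 to 101899480, at 1902 kb, the levels were 40.6% ± 4.82 and 46.5% ± 9.05. The region on the same chromosome from 101674288 to 101674839 was at 40.3%, 58.5% and 41.7% for fetal animals, with lambs at 29.2%, 37.5% and 29.8%, without overlap. Its adjusted p was 0.403 (quasi-binomial, moderated as in limma, described in the next paragraph), and its difference of -14.7 points was -8.80 without fetal animal 2. The widest examined member, 17283 bp on chromosome 5 from 38427096 to 38444378, had means of 35.2% ± 12.3 and 29.3% ± 4.57 from 4 usable CpGs. The 10685 bp region on chromosome 18 from 17472013 to 17482697 was at 38.9% ± 5.22 and 41.5% ± 2.08. The 10121 bp region on chromosome 16 from 46287076 to 46297196 was at 53.3% ± 9.83 and 69.6% ± 1.55, without overlap, with only 4 of its 44 CpGs usable and an adjusted p of 0.366 in that test. Its difference of 16.4 points was 10.9 without fetal animal 1 and 9.38 with a minimum of 1 read.

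No single remote LMR could be called different between the stages, which at this depth does not show that their levels were alike. Regions were tested by a quasi-binomial model of methylated against unmethylated reads, with the dispersion moderated as in limma, over all 78994 merged UMRs and LMRs with at least 3 usable CpGs. A call needed a Benjamini-Hochberg adjusted p below 0.05 and a difference of at least 10 points. None of the 15362 members was called, where 0.0038% of all regions tested were called, and the smallest adjusted p among members was 0.139. By direction these were 0.00253% higher and 0.00127% lower in lambs. limma and edgeR on the same reads called 0 members as well, where limma called 0 and edgeR 5 of all 78994 regions. An unadjusted p under 0.05 was found for 1218 members (7.93%), against 11.3% of all regions tested and 9.06% of near LMRs. Among UMRs and LMRs listed in both stages the share with such a p was 8.985%. With limma an unadjusted p under 0.05 was found for 1217 members and 10.2% of all regions, and with edgeR for 1118 members and 10.3%. Of the 1218, 817 were higher and 401 lower in lambs, that is 5.32% and 2.61% of the members, against 7.15% and 4.1% of all regions tested. All regions include those listed in 1 stage alone, which were listed for a low level in that stage. Members also had fewer reads, a median of 41.5 per animal against 48.2 in all regions and 45.1 in near LMRs.

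Differences of single members were spread on both sides of 0. The lamb mean was higher in 57.0% of members, where it was higher in 56.3% of all regions tested. The median difference was 1.29 points, with quartiles of -3.70 and 6.43, and the median over all regions was 0.823 points. The animals did not overlap, with lambs higher, in 1262 members (8.22%) against 9.8% of all regions, and with lambs lower in 716 (4.66%) against 6.15%. Among UMRs and LMRs listed in both stages these shares were 8.59% and 4.999%. Differences of at least 10 points were found in 2096 of 15362 members upward and 1217 downward. Of all 78994 regions it was 11340 (14.4%) upward and 7293 (9.23%) downward. Animals of a stage had a median SD of 7.72 points. In 78.4% of members the difference stayed within 10 points, against 76.4% of all regions and 78.4% of near LMRs. Among UMRs and LMRs listed in both stages it was 83.5%.

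The member with the smallest p lies on chromosome 4 from 100647872 to 100648440, 112.5 kb from a UMR and 13.1 kb from the next LMR. The authors' fetal list gives all of its 569 bp and the lamb list 197 bp. Over 11 CpGs and 93.8 reads per animal it was at 17.2%, 17.6% and 16.3% in fetuses 1 to 3 and, for lambs 1 to 3, 51.0%, 42.1% and 38.3%. The fetal animals were close together and every lamb stood more than 20 points above them, a mean difference of 26.8 points. Its flanks were at 78.0% in fetal animals and 77.9% in lambs. The adjusted p was 0.139, and it was 0.0385 if 3 reads were asked for at a CpG and 0.0441 if 1 was (quasi-binomial, moderated as in limma). It was then the only member called, where 0.0149% and 0.0195% of all regions tested were called at those minimums. At each of its 14 CpG positions the reads summed over the lambs showed more methylation than those summed over the fetal animals. The difference per CpG ran from 0.109 to 46.6 points. At position 100648239, 2 of 19 fetal and 12 of 21 lamb reads were methylated, and at position 100648389, 5 of 34 and 4 of 27. This region was singled out after its values were seen.

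Among members with at least 5 usable CpGs and no overlap of the animals, the 5 largest differences with lambs higher lay between 27.7 and 29.1 points. On chromosome 6 from 69153713 to 69154780 the levels were 32.7%, 44.7% and 22.2% for fetal animals, with lambs at 55.6%, 69.4% and 62.0%. On chromosome 24 from 30706470 to 30707242, 215 kb from a UMR, they were 18.6%, 23.0% and 11.2% against 44.6%, 52.4% and 40%. On chromosome 14 from 8479401 to 8479940 they were 18.2%, 22.2% and 13.6% against 38.5%, 46.0% and 52.7%. The lambs stood clear of the fetal animals in each of these. The regions on chromosome 21 from 32409442 to 32410236 and on chromosome 10 from 32023586 to 32024196 differed by 28.8 and 28.2 points, with an SD of 9.23 to 12.95 points in each stage. All 5 were covered by more bases in the fetal list than in the lamb list. The lists come from the same animals, so these widths are not independent of the levels. Their adjusted p values ran from 0.183 to 0.258 (quasi-binomial, moderated as in limma). They were picked for their size and lack of overlap, so neither is a finding about them. With a minimum of 1 read the difference was 14.9 points for the chromosome 6, 16.9 for the chromosome 21 and 18.15 for the chromosome 10 region.

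By the same limits, the 5 largest differences with lambs lower lay between -32.1 and -27.0 points. On chromosome 17 from 45671094 to 45671782 the levels were 58.3%, 61.8% and 82.4% in the fetuses and, for lambs, 43.3%, 29.4% and 33.3%. This region overlaps a differentially methylated region of the authors' hypo list. On chromosome 3 from 210229430 to 210229804 the fetal animals were at 60%, 39.0% and 19.4% and the lambs at 6.94%, 7.41% and 17.4%. On chromosome 5 from 65588995 to 65589628, 516 kb from a UMR, they were at 29.3%, 40% and 65.7% against 18.9%, 15.7% and 15%. In these last 2 the fetal animals were far apart and the lambs close together. The regions on chromosome 3 from 199040066 to 199043362 and on chromosome 26 from 4574238 to 4574890 differed by -29.2 and -27.0 points. The lamb list covered more bases than the fetal list in these regions, except on chromosome 3 from 210229430. There the fetal list gave 307 bp and the lamb list 305 bp. Adjusted p values of the 5 ran from 0.262 to 0.293 in the same limma-moderated test. With a minimum of 1 read the difference was -17.2 points on chromosome 17, -12.5 in the chromosome 3 region that starts at 199040066 and -12.95 on chromosome 26. It was -18.65 for the chromosome 3 region that starts at 210229430 without fetal animal 1 and -18.1 for the chromosome 5 region without fetal animal 3.

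**Figure D5:**
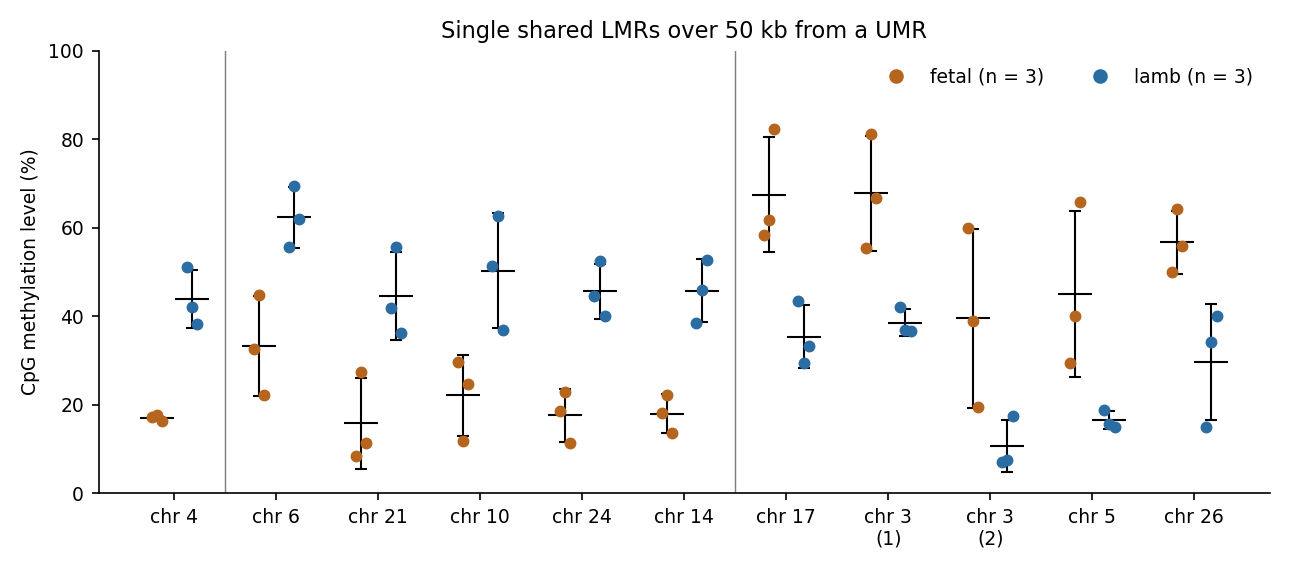
CpG methylation level (%) of single remote LMRs, 1 point per animal with the mean and SD of each stage (n = 3): left, the chromosome 4 region with the smallest p; middle and right, the 5 largest differences without overlap over at least 5 usable CpGs, with lambs higher and lower. Fetal animals span 16.3% to 17.6% in the chromosome 4 region but 19.4% to 60% in the chromosome 3 region that starts at 210229430.

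Few remote LMRs met the authors' differentially methylated regions (DMRs). Of 29231 members, 33 (0.113%) overlapped 1 of the 1022 autosomal DMRs by at least 1 base, 22 of the hyper and 11 of the hypo list. In near LMRs it was 119 (0.264%). Of the 24 that could be examined, all 19 in hyper DMRs were higher on average in lambs, by a median of 16.03 points, and all 5 in hypo DMRs the lower mean, with a median of -14.4 points. The DMR lists were drawn from the same animals, so these directions are not independent of the lists. The member with the most reads, on chromosome 13 from 15109340 to 15110082 with 20 usable CpGs, was at 25.6%, 39.9% and 29.96% in the fetuses and 46.9%, 45.75% and 57.25% in lambs. On chromosome 22 from 45365264 to 45365928, over 17 CpGs, the levels were 31.8% ± 4.48 and 47.8% ± 5.17, and on chromosome 26 from 40310768 to 40311802, over 15 CpGs, 28.8% ± 1.42 and 44.2% ± 5.31 (SD, n = 3 each). In these 3 the animals did not overlap. The hyper DMR member on chromosome 24 from 15739590 to 15741050 was at 47.3% ± 4.11 and 59.5% ± 3.84, also without overlap, and that on chromosome 25 from 45054156 to 45054454 at 22.2% ± 6.51 and 36.1% ± 9.59 with overlap. The hypo DMR member on chromosome 7 from 17014669 to 17016202 was at 21.8%, 20.6% and 32.7% for fetal animals, with lambs at 20.2%, 15.3% and 8.14%, without overlap, though fetal animal 2 and lamb 1 were less than 1 point apart, and the difference of -10.5 points was -6.68 without fetal animal 3. Adjusted p for these 6 ran from 0.252 to 0.403 (quasi-binomial, moderated as in limma).

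LMRs more than 50 kb from a UMR but listed in 1 stage alone give the level of regions whose listing changed. The 16038 of the fetal list were at 39.2% ± 1.36 in fetal animals and 49.1% ± 1.36 in lambs, and the 13499 of the lamb list at 48.9% ± 0.760 and 40.1% ± 0.816 (SD, n = 3 each). Remote LMRs of both lists were lower than either in the stage that listed them. These differences follow from the listing and were not tested.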

How the data were processed

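The authors deposited a table with raw read counts at each CpG position (methylated and total, per animal) and lists of regions by position alone. Per the series' design text reads were mapped to sheep Oar_v3.1, the build of all positions here; the submitters' processing notes also name hg19, Picard and BWA, without roles. The methylation caller, the duplicate and conversion filters and the way the lists were made are unstated in these sources. No genome or annotation of that build was used, so no sequence and no gene is named.

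Columns were matched to animals by the sample descriptions. Region starts were read as 0-based. A class level is the sum of methylated over covering reads per animal. Stages were compared by exact permutation of labels and classes of regions by exact sign flips within animals. The quasi-binomial test was fitted on all merged UMRs and LMRs, with dispersion kept at 1 or more (prior 1.43 with 8.99 degrees of freedom, the same from limma's squeezeVar). On simulated reads of the same depth it missed most members that were given a large difference. Alternatives tried were minimum coverage of 1, 3 or 10 reads, omission of animals or CpGs with over 3 times the median coverage, other weights, distances of 25 and 100 kb, 50% reciprocal overlap, DMVs counted with UMRs, flanks of 1 to 2 kb, at least 5 CpGs, limma, edgeR and a replicate block. Regions were named when called, by the 5 largest differences without overlap per direction over at least 5 CpGs, and as the 3 farthest, widest, lowest and highest and the 6 deepest in DMRs. The members and lists were chosen with earlier results of these data known. Python 3.11.15, numpy 2.4.6, scipy 1.17.1, pandas 2.3.3, R 4.3.3, limma 3.58.1 and edgeR 4.0.16 were used.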

Additional observations from a re-analysis of the deposited data

How the results depend on the processing

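Remote LMRs kept a higher mean in lambs in every setting run, with 1.10 to 1.88 points without single animals and 2.88 with a minimum of 10 reads, which left 664 of their CpGs. Remote minus near over whole regions kept its sign except with 10 reads (-2.42) and, in classes added after the data were seen, above 40 CpGs per kb (-2.68) and up to 500 bp (-0.195). In the central 250 bp bins of the profile it was negative in every animal. Without an animal, remote minus near over whole regions was 1.43 to 1.53, the flank gap -0.943 to -0.822 and the dip gap -2.40 to -2.32. With 5 animals the test cannot pass 0.05 (exact permutation p = 0.0625 each). With 10 reads the dip gap was -0.0252. The stage change of remote minus near turned negative without an animal (-0.131 to 0.121), against LMRs within 5 kb (-0.0296), with equal weight per region (-0.106) or CpG (-0.134; -0.0772 with a minimum of 1 read) and without CpGs of high coverage (-0.0495). That of the dip gap, 0.0206 at first, was -0.00768 with flanks of 1 to 2 kb, -0.110, -0.0461 and -2.03 when at least 1, 3 or 10 reads were asked for, and -0.0914 to 0.116 when single animals were left out. Without an animal the flank difference between stages ran from -0.0148 to 1.12 and the dip difference from -1.24 to -0.410. The remote share of shared and of 1-stage LMRs was 55.3% and 60.4% at 25 kb, and 24.6% and 33.5% at 100 kb, by construction. Called members, 0 at first, numbered 1 with minimums of 3 and 1 reads. Of 29 named regions, the 20 that differed by at least 10 points did not turn, which their choice largely fixes, but several shrank by over 1.5 times, as given beside them. With a minimum of 3 reads this held for chromosome 6 from 69153713 (17.3 points), chromosome 10 (18.15), chromosome 17 (-17.6), chromosome 3 from 199040066 (-15.2) and chromosome 26 from 4574238 (-15.8). Others turned: chromosome 26 from 42288148 to 42290329 (-2.10 without fetal animal 1, -3.23 without lamb 2, range to 4.53, and -3.25 and -1.42 with minimums of 1 and 3 reads), chromosome 6 from 74503038 to 74505196 (-1.70 without fetal animal 2, range to 7.07), chromosome 4 from 7694622 to 7696143 (-0.303 without lamb 1, range to 1.16, and -0.691 with 1 read), chromosome 13 from 73301564 to 73302146 (0.233 and 0.388 with 1 and 3 reads) and chromosome 18 from 17472013 to 17482697 (-1.83 and -0.212 with 1 and 3 reads). Except where said, the cause was not tested. Replicate numbers name separate animals, and deviations of same-numbered animals over members correlated by -0.0103, 0.0134 and 0.00719, which does not pair them. With the number as a replicate block stages differed by 1.43 points (p = 0.25 by exact permutation, the smallest that 3 pairs allow). The change of that difference between remote and near was 0.0125 points. Calls numbered 0 among members and 0 among all regions tested.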
